A study of Homo sapiens with 6 samples.

Results

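The annexins described here are 8 genes, ANXA1, ANXA2, ANXA3, ANXA4, ANXA5, ANXA6, ANXA7 and ANXA11, out of 53715 genes in the count table. They were chosen by symbol, from a list drawn up with earlier results of these libraries in view, and ANXA1 had been singled out for the size of its difference between ASO-L1 and sO-L1. For that reason the ANXA1 values in both comparisons of ASO-L1 are given as a description, with no test. The libraries came from the human embryonic stem cell line H9, kept in the primed state and transfected with 25 nM of an oligonucleotide tagged with fluorescein (6-FAM). The 3 groups were ASO-Ctr, a non-targeting antisense oligo, sO-L1, a sense oligo of the LINE1 (L1) transposon family, and ASO-L1, an antisense oligo against L1. All cells, controls included, were also given 0.7 uM trans-ISRIB (which blocks the integrated stress response), 5 uM of the caspase inhibitor emricasan and 10 uM of the ROCK inhibitor Y-27632, withdrawn after 24 hours. FAM+ cells were sorted 48 hours after transfection and poly(A) RNA was sequenced from 2 libraries per group. For the time after transfection the labels disagree between mTeSR and RSeT medium. The study asks what L1 contributes to the repression of an 8-cell-like state, and the annexins are read here across its 3 oligos.

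Annexins are cytosolic proteins that bind acidic phospholipids, phosphatidylserine above all, when calcium rises. Each has a conserved core of annexin repeats that docks on the membrane and a variable N-terminal tail that carries its partners, often S100 or penta-EF-hand proteins. Members of the family link membranes to actin, act in vesicle traffic and in the resealing of torn plasma membrane, and some act outside the cell. Annexin A5 is best known as the reagent that stains dying cells with exposed phosphatidylserine.

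The start-site regions of ANXA1, ANXA2 and ANXA3 are shown because these genes lay higher in ASO-L1 while the letters before their starts differ widely. They are the 250 bases before the annotated start, taken from RefSeq on GRCh38.p14 and printed along the strand of the gene. The ANXA1 window is chr9:73151615-73151864 (+), the ANXA2 window chr15:60397987-60398236 (-) and the ANXA3 window chr4:78551520-78551769 (+). Capitals mark TATAAA, the core of the TATA box, and TGANTCA, the core of the AP-1 site, both searched on both strands and chosen after the sequences were read.
ANXA1: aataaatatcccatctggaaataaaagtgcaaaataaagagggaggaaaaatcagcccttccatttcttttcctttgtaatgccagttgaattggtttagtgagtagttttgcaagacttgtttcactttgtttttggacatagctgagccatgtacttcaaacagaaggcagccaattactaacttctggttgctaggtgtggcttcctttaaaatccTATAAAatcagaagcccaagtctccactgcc
ANXA2: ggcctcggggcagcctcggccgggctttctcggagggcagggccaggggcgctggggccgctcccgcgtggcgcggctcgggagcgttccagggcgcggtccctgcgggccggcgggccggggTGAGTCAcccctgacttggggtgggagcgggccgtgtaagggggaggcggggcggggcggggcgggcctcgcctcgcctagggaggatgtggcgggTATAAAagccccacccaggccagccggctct
ANXA3: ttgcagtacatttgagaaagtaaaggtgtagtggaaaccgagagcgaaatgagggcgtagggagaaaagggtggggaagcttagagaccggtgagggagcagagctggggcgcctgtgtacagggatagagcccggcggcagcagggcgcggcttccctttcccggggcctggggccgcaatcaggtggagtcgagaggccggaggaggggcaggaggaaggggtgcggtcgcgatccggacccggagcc
The ANXA1 window had a GC content of 38.4% and 0 CpG dinucleotides, and 10.1% of the 35116 RefSeq windows of this length had a lower GC content. TATAAA began 31 bases before the ANXA1 start. The ANXA2 window had a GC content of 78.0% with 28 CpG, again with TATAAA beginning 31 bases before the start, and with TGANTCA beginning 127 bases before it. The ANXA3 window had a GC content of 64.0% with 18 CpG and neither motif. The median window had a GC content of 58.0%, TATAAA occurred in 10.7% of all windows and TGANTCA in 6.57%, and GGAATG, the core of the TEAD site, in 11.9%. The table held 12 windows for the 8 annexins, and apart from ANXA1 and ANXA2 only 1 of the ANXA11 windows held TATAAA, 61 bases before its start. TGANTCA was in none but that of ANXA2, and GGAATG in 0 of the 12. These matches are letters in a window and say nothing of a factor bound there.

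Library totals ranged from 18897936 to 67192937 counts, and TMM scaling factors from 0.983 to 1.02. Mitochondrial genes held 3.79% to 4.24% of counts. The 11 pluripotency markers, POU5F1, SOX2 and NANOG among them, were all detected and summed to 9151 to 9519 CPM, the count scaled by its library's total, in each library. Summed amnion and trophoblast markers lay between 24.8 and 27.1 CPM, with HAND1 at 0 in every library, and mesoderm and endoderm markers between 5.39 and 7.70 CPM. Fibroblast and epidermis markers summed to 379 to 412 CPM, mostly THY1 and COL1A2, with KRT14 at 0. Neural markers summed to 527 to 576 CPM, nearly all of it NES and TUBB3. In 3 of the 5 marker sums both ASO-L1 libraries lay beyond the 4 others: neural markers were highest there (568 and 576 CPM), and pluripotency markers (9151 and 9236 CPM, against 9253 or more) and mesoderm and endoderm markers (6.12 and 5.39 CPM, against 6.14 or more) were lowest. The genes of a list did not all follow its sum. By edgeR, 3 of 11 pluripotency genes were called higher and 3 lower against sO-L1, beside 10.3% and 12.7% of all genes. SOX2 (502 and 471 CPM against 402 to 447 CPM) and ZIC2 (513 and 518 CPM against 425 to 461 CPM) were among the higher. Of 6 neural genes tested, 1 (NES) was higher and 1 (DCX) lower against ASO-Ctr, beside 9.88% and 11.6% of all genes. None of these was called without the replicate number. PAX6 and SOX1, also neural markers, overlapped between ASO-L1 and the other groups and were not called. FOXA2, an endoderm factor of the mesoderm and endoderm list, was at 1.93 and 1.61 CPM in ASO-L1 against 3.23 to 3.89 CPM in the others. Its edgeR adjusted p was 3.0e-07 from sO-L1 and 3.2e-05 from ASO-Ctr, and 0.0213 and 0.0428 without the replicate number. EOMES, of the same list, went the other way, at 0.822 and 0.639 CPM in ASO-L1 against 0 to 0.393 CPM in the others. For EOMES the edgeR adjusted p was 0.0406 and 0.0119, and 0.362 and 0.251 without the replicate number. The 4 other genes of that list that were tested were not called. The low sum of the list in ASO-L1 lay in FOXA2, its largest part in the other groups. Without FOXA2 the sum was not lowest in ASO-L1. The part of these marker levels in the annexin values was not tested. In sorted bulk RNA, fewer cells of a kind and less RNA per cell cannot be told apart. The labels do not say that the libraries of a group came from separate cultures, so p-values measure only the spread between these libraries. In the edgeR fit with the replicate number that spread comes, for most genes, mainly from all genes together and less from the gene tested.

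Outside ANXA1, the annexins split by direction when ASO-L1 was compared with sO-L1: ANXA2 and ANXA3 were higher, ANXA4 and ANXA6 were lower, and ANXA5, ANXA7 and ANXA11 were not called. These calls are those of edgeR's quasi-likelihood test on counts at a Benjamini-Hochberg adjusted p under 0.05, with group and replicate number in the design. Called members numbered 4 of 7 here, 2 of 7 in each direction, against 10.3% of all 19156 genes tested called higher and 12.7% called lower. The median log2 fold change of the 7 was -0.03, and that of all genes tested was 0.00. Against ASO-Ctr, 2 of 7 were higher in ASO-L1 (ANXA2 and ANXA3) and 1 of 7 was lower (ANXA6), beside 9.88% and 11.6% of all genes, and the median of the 7 was again -0.03. Both comparisons use the same ASO-L1 libraries, so they are not separate evidence. Without the replicate number in the design the same test called none of the 7 in either comparison. The share of all genes called then was 1.84% against sO-L1 and 1.95% against ASO-Ctr. In that test 4 of 7 and 2 of 7 had an unadjusted p under 0.05, as did 3167 and 3207 of all 19156 genes tested. All 7 differences were smaller than 2-fold.

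Between sO-L1 and ASO-Ctr none of the 8 annexins was called. In this comparison 0.658% of all genes were called higher and 1.06% lower, and 0% without the replicate number. Among the 7 members other than ANXA1, 1 had an unadjusted p under 0.05 in the edgeR fit and 0 without the replicate number. Over all 19156 genes tested these counts were 2448 and 569. DESeq2 and limma-voom also called 0 of the 7. Log2 differences ran from -0.04 for ANXA3 to 0.19 for ANXA4, the latter with an adjusted p of 0.318 by edgeR. The ANXA1 difference was -0.04 ± 0.34 (SE) on the log2 scale, with an adjusted p of 0.982.

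**Figure D1:**
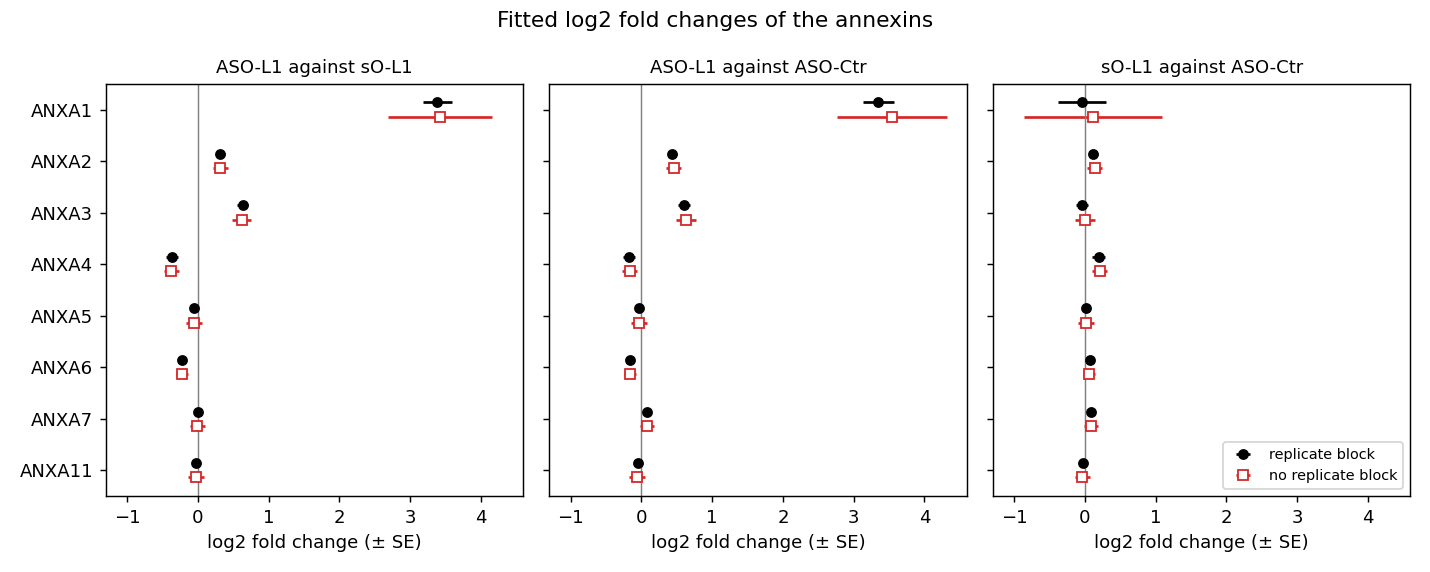
Log2 fold changes of the 8 annexins (x axis) with their standard errors (bars) in each of the 3 comparisons, from edgeR with the replicate block (filled) and without it (open squares). ANXA1 lies above 3 in both ASO-L1 comparisons, and the other 7 lie between -0.4 and 0.7.

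ANXA1, the annexin induced by glucocorticoids and known for an anti-inflammatory action through formyl peptide receptors, had the widest range of the family as a ratio of the highest library to the lowest, though ANXA5 and ANXA6, among others, spanned more CPM. Its level was 1.53 and 0.253 CPM in the ASO-Ctr libraries (replicates 1 and 2), 1.24 and 0.262 CPM in sO-L1, and 9.95 and 4.30 CPM in ASO-L1. Both ASO-L1 libraries were above all 4 others, and within each group replicate 1 was above replicate 2. The values rest on 29 and 17 counts (ASO-Ctr), 43 and 16 counts (sO-L1), and 460 and 249 counts (ASO-L1). The exact 95% Poisson intervals, which cover counting error only, were 3.78 to 4.87 CPM for the lower ASO-L1 library and 1.03 to 2.20 CPM for the highest of the other 4. The 2 replicates of ASO-Ctr had intervals of 1.03 to 2.20 and 0.147 to 0.405 CPM, so their gap was also wider than counting error.

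In the fit with the replicate number, ANXA1 was 10.4-fold higher in ASO-L1 than in sO-L1 (log2 3.38 ± 0.20, SE) and 10.2-fold higher than in ASO-Ctr (log2 3.34 ± 0.22). Without the replicate number the log2 values were 3.42 ± 0.73 and 3.54 ± 0.78, with SEs more than 3 times as wide. The fold depended on which libraries were set side by side: within replicate 1, ASO-L1 was 7.99-fold above sO-L1, and within replicate 2, 16.6-fold. Against ASO-Ctr the folds were 6.55 and 17.4. Leaving out ASO-L1 replicate 1 raised the log2 value against sO-L1 to 4.16 and that against ASO-Ctr to 4.00, and leaving out ASO-Ctr replicate 1 raised the latter to 4.02. Over all alternatives tried the log2 value stayed between 2.95 and 4.16 against sO-L1, and between 2.77 and 4.02 against ASO-Ctr.

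Replicate 1 exceeded replicate 2 in ANXA1 by 2.45 on the log2 scale in ASO-Ctr, by 2.11 in sO-L1 and by 1.22 in ASO-L1. Among the other 7 annexins the differences between replicates ran from -0.27 (ANXA11 in ASO-L1) to 0.46 (ANXA3 in sO-L1). Of the fibroblast and epidermis markers, COL3A1, a fibrillar collagen picked out here after its values were seen, also differed by replicate number. It was at 0.952 and 0.0298 CPM in ASO-Ctr, 0.952 and 0.115 CPM in sO-L1, and 1.02 and 0.0691 CPM in ASO-L1. Its replicate 1 libraries were alike in all 3 groups, unlike those of ANXA1. COL1A2, another collagen gene of the list, ran the other way, with 84.4 to 91.9 CPM in the 3 replicate 1 libraries and 97.7 to 109 CPM in the 3 of replicate 2. The neural marker SOX1 was higher in replicate 1 of every group, at 1.90 to 2.94 CPM against 0.566 to 0.794 CPM in replicate 2. DCX, of the same neural list, was lower in replicate 1 of every group. It was at 8.31 and 9.67 CPM in ASO-Ctr, 7.13 and 9.41 CPM in sO-L1, and 6.77 and 7.53 CPM in ASO-L1. The fibroblast and epidermis list did not separate ASO-L1 from the other groups in its sum, but 2 of its genes did, in opposite directions and by unlike amounts. COL1A1 was at 76.1 and 72.4 CPM in ASO-L1 against 42.8 to 55.2 CPM in the 4 others. Its log2 differences were 0.63 ± 0.06 (SE) from sO-L1 and 0.61 ± 0.07 from ASO-Ctr. The edgeR adjusted p was 3.3e-09 and 1.2e-08, and 0.0290 and 0.0320 without the replicate number. THY1, the largest part of the sum, was at 231 and 226 CPM in ASO-L1 against 235 to 256 CPM in the others. Its log2 difference from ASO-Ctr was -0.13 ± 0.05, with an edgeR adjusted p of 0.0421, and of 0.408 without the replicate number. From sO-L1 the THY1 difference was -0.05 ± 0.05 and was not called (edgeR adjusted p 0.455). LUM and DCN, defining genes of fibroblasts, had at most 3 counts in any library. The part of such cells in the ANXA1 values was not tested.

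**Figure D2:**
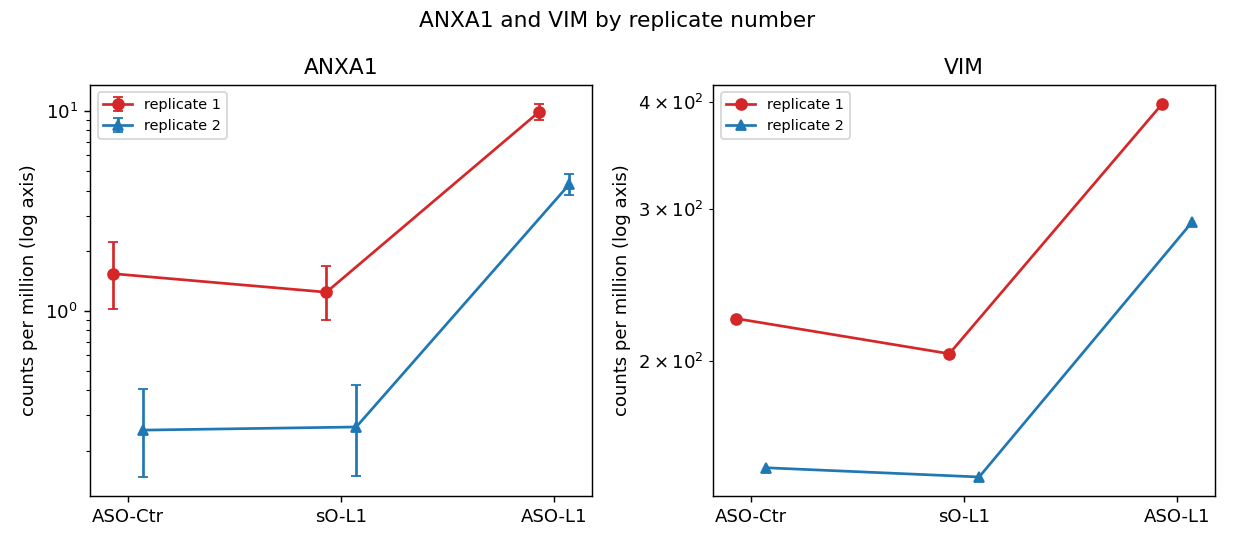
CPM on a log axis of ANXA1 (left, bars are exact 95% Poisson intervals) and VIM (right) in each group, with lines joining the libraries of the same replicate number. Both genes were highest in ASO-L1 in each replicate, and replicate 1 lay above replicate 2 in all 3 groups. VIM was picked for its likeness to ANXA1 in these libraries, so the shared pattern is no separate result.

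ANXA2, which pairs with S100A10 at the inner face of the plasma membrane and binds plasminogen and its activator at the outer face, was higher in ASO-L1. It had 29.4 and 28.4 CPM in ASO-Ctr, 33.2 and 29.6 CPM in sO-L1, and 41.3 and 36.6 CPM in ASO-L1. The ASO-L1 libraries were above the 4 others, and the sO-L1 libraries just above ASO-Ctr. The log2 difference was 0.32 ± 0.06 (SE) from sO-L1 (edgeR adjusted p 6.1e-05, and 0.161 without the replicate number). From ASO-Ctr it was 0.44 ± 0.06 (edgeR adjusted p 3.6e-07, and 0.0642 without the replicate number). ANXA2 has processed pseudogenes with near-identical sequence. They held 9 counts or fewer per library in this table, and adding them to ANXA2 changed neither call. Counts this few could hardly move the sum, so this is no test of reads misplaced between ANXA2 and its pseudogenes.

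ANXA3, a less studied member named among the lipocortins, was at 16.6 and 16.6 CPM in ASO-Ctr, 18.9 and 14.1 CPM in sO-L1, and 25.7 and 24.6 CPM in ASO-L1. The 2 sO-L1 libraries lay on either side of ASO-Ctr, and both ASO-L1 libraries were higher than either group. The log2 difference was 0.64 ± 0.08 (SE) from sO-L1 (edgeR adjusted p 1.3e-08, and 0.0598 without the replicate number). From ASO-Ctr it was 0.60 ± 0.08 (edgeR adjusted p 9.8e-08, and 0.0606 without the replicate number). Within replicates ASO-L1 exceeded sO-L1 by 1.36-fold and 1.76-fold, and ASO-Ctr by 1.57-fold and 1.51-fold.

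ANXA4, an annexin abundant in secretory epithelia, went the other way against sO-L1. It was at 12.7 and 13.8 CPM in ASO-Ctr, 15.7 and 14.7 CPM in sO-L1, and 11.6 and 11.8 CPM in ASO-L1. The groups did not overlap, with sO-L1 the highest and ASO-L1 the lowest. The log2 difference from sO-L1 was -0.37 ± 0.08 (SE), with an edgeR adjusted p of 7.7e-04, which became 0.108 without the replicate number and 0.113 without sO-L1 replicate 1. From ASO-Ctr it was -0.18 ± 0.09 with an adjusted p of 0.158. In the GENCODE v29 annotation ANXA4 is overlapped on the opposite strand by AAK1, which had 20.3 to 28.1 CPM, and by AC092431.1. Whether reads were counted by strand is not given in the sources used here, so the ANXA4 values are uncertain.

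ANXA6, the annexin with a duplicated core of repeats, was at 80.8 and 88.7 CPM in ASO-Ctr, 82.5 and 92.8 CPM in sO-L1, and 70.1 and 79.2 CPM in ASO-L1. Both ASO-L1 libraries were below the 4 others, and in every group replicate 2 was the higher. Against sO-L1 the log2 difference was -0.23 ± 0.05 (SE), with an edgeR adjusted p of 4.9e-04 and of 0.223 without the replicate number. Against ASO-Ctr it was -0.16 ± 0.05, with an adjusted p of 0.0187 and of 0.384 without the replicate number. That second call was also lost with DESeq2 (adjusted p 0.0675) and when any 1 of the 4 libraries compared was left out. The adjusted p was 0.182 and 0.0665 without ASO-Ctr replicate 1 or 2, and 0.185 and 0.0608 without ASO-L1 replicate 1 or 2.

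ANXA5 was the most abundant annexin, at 368 and 309 CPM in ASO-Ctr, 365 and 312 CPM in sO-L1, and 339 and 311 CPM in ASO-L1. The groups overlapped, and replicate 1 was the higher in each. The log2 difference of ASO-L1 was -0.05 ± 0.05 (SE) from sO-L1 and -0.03 ± 0.05 from ASO-Ctr, with edgeR adjusted p of 0.509 and 0.727. ANXA7, or synexin, first known for the fusion of secretory granules, was at 81.1 and 73.9 CPM in ASO-Ctr, 86.7 and 75.7 CPM in sO-L1, and 84.0 and 77.3 CPM in ASO-L1. Its groups overlapped, with log2 differences of 0.00 from sO-L1 (edgeR adjusted p 0.992) and 0.08 from ASO-Ctr (0.292). ANXA11, which tethers RNA granules to lysosomes, was at 45.2 and 51.0 CPM in ASO-Ctr, 43.1 and 50.05 CPM in sO-L1, and 41.0 and 50.1 CPM in ASO-L1. It overlapped between all groups, with log2 differences of -0.03 and -0.05 (edgeR adjusted p 0.795 and 0.582).

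**Figure D3:**
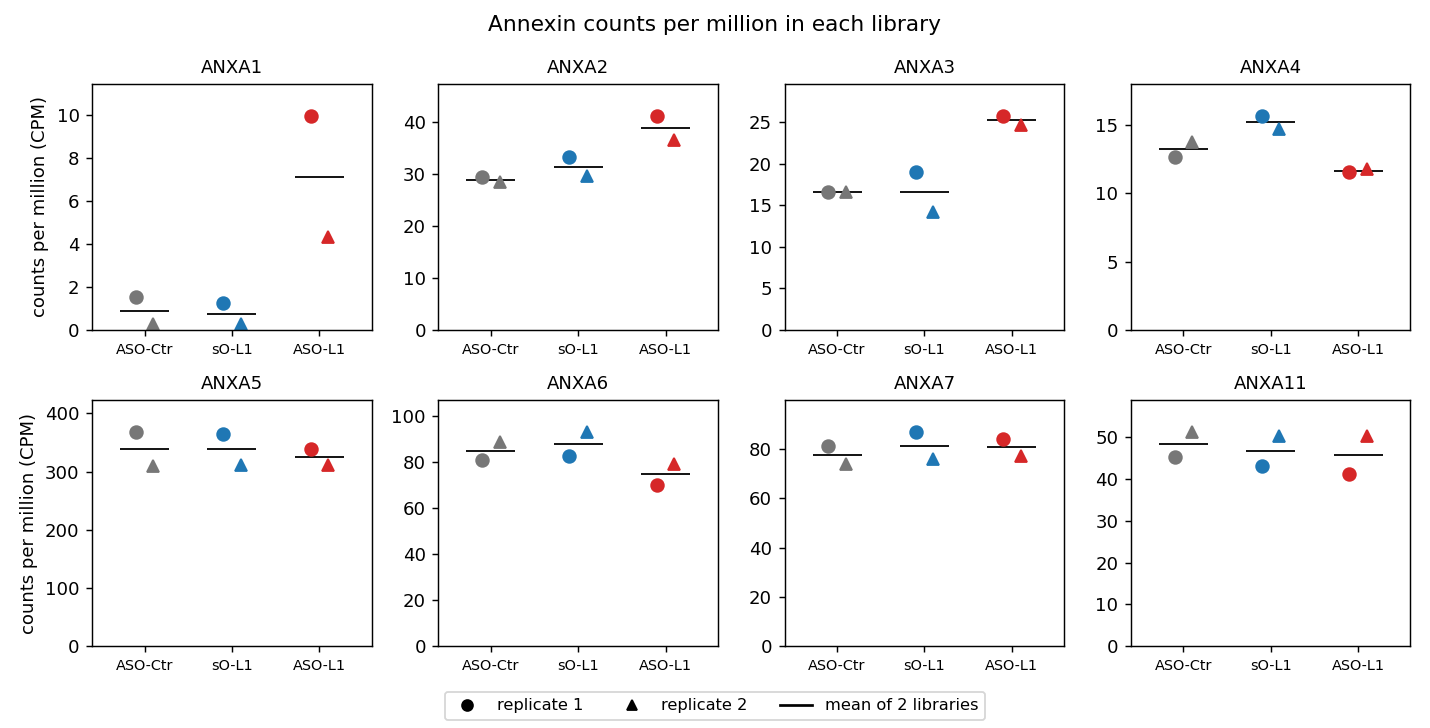
CPM of the 8 annexins in each of the 6 libraries (circle, replicate 1, and triangle, replicate 2), with the mean of each group of 2 as a line and y axes that start at 0. ANXA1, ANXA2 and ANXA3 are highest in both ASO-L1 libraries, ANXA4 and ANXA6 lowest there, and ANXA5, ANXA7 and ANXA11 overlap between groups.

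Levels of different annexins were compared as CPM per kilobase of exon, using the joined exons of GENCODE v29 basic transcripts (GRCh38). ANXA5 came first, at 175 to 209 CPM per kilobase over the 6 libraries and 62.3% to 67.8% of the family's sum. ANXA7, at 30.1 to 35.4, and ANXA6, at 26.0 to 34.4 CPM per kilobase, followed and overlapped each other. ANXA2 had 15.1 to 21.9, ANXA3 7.87 to 14.3, ANXA11 5.67 to 7.05 and ANXA4 4.14 to 5.61 CPM per kilobase, in that order with no overlap between neighbours. ANXA1 was last, at 0.106 to 4.19 CPM per kilobase, and only in ASO-L1 replicate 1 did it reach the level of ANXA4. With the exons of all transcripts as the length, the middle of the order changed: mean levels were 5.49 for ANXA11, 3.79 for ANXA3 and 3.75 for ANXA2. The annotation used for counting is not given in the sources used here, so the middle of the order is uncertain.

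**Figure D4:**
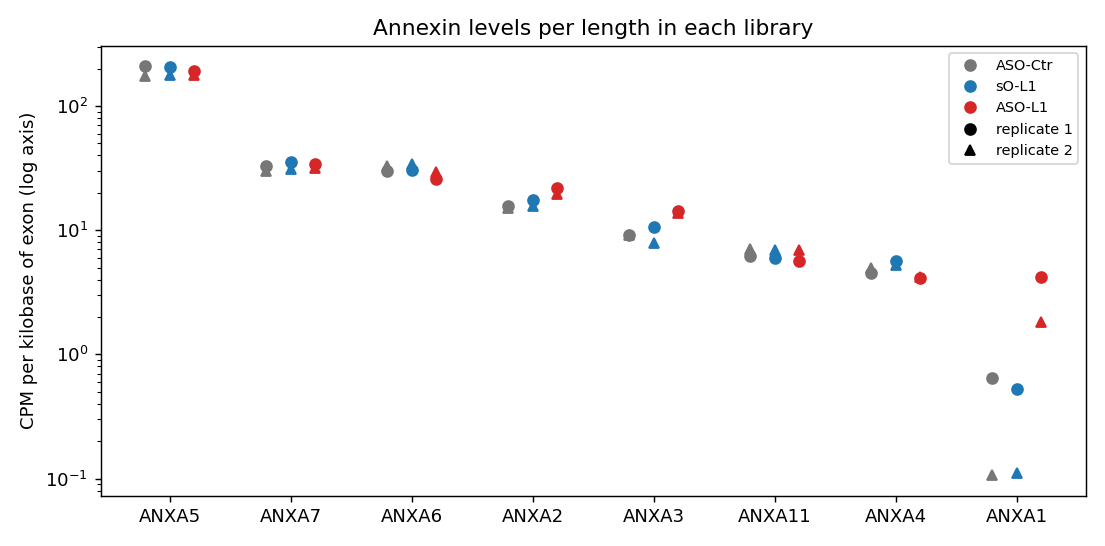
CPM per kilobase of exon (log axis) of the 8 annexins in the 6 libraries, ordered by mean, coloured by group and shaped by replicate. ANXA5 stands between 175 and 209 in every library, and ANXA1 spreads from 0.106 to 4.19.

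The table held 10 further genes with annexin names, of which 2 passed the filter on low counts and 0 were called in any comparison by edgeR, with or without the replicate number and also at an unadjusted p under 0.05. ANXA9 lay between 3.18 and 3.78 CPM in all libraries, above ANXA1 everywhere but in ASO-L1. ANXA2P1 was between 0.0744 and 0.231 CPM. ANXA8, ANXA8L2, ANXA13 and ANXA2P3 were at 0 counts in all 6 libraries, where 3 counts would be 0.0446 to 0.159 CPM. ANXA2P2, ANXA8L1, ANXA10 and ANXA2R had 6 counts or fewer in each library.

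In the S100 and penta-EF-hand list, several of whose proteins bind annexin tails, none was called higher in any of the 3 comparisons. Of 22 such genes, 14 were tested. In ASO-L1 against sO-L1, 2 of 14 were called lower, GCA (log2 -0.20 ± 0.06) and SRI (-0.15 ± 0.05), and the median was 0.00, as over all genes. With 12.7% of all genes called lower in that comparison, the count is near the share over all genes. ASO-L1 did not differ from ASO-Ctr in these 2 genes, with log2 -0.03 ± 0.06 for GCA and 0.04 ± 0.05 for SRI (edgeR adjusted p 0.810 and 0.692). In sO-L1 they lay above ASO-Ctr by log2 0.17 ± 0.06 and 0.19 ± 0.05 (edgeR adjusted p 0.144 and 0.0502, not called). Against ASO-Ctr, where 11.6% of all genes were called lower, only S100A16 fell (log2 -0.22 ± 0.08, edgeR adjusted p 0.0414), and in sO-L1 against ASO-Ctr, with 1.06% of all genes lower, only S100A4 did (log2 -0.54 ± 0.12, edgeR adjusted p 0.00684). None of these calls was made without the replicate number. The counts of 2 and 1 in the ASO-L1 comparisons went to 0 with DESeq2. They also went to 0 when replicate 1 of ASO-L1 or of sO-L1 was left out, and, against ASO-Ctr, without ASO-Ctr replicate 2, sO-L1 replicate 2 or ASO-L1 replicate 2. Without sO-L1 replicate 2 the count against sO-L1 was 1.

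S100A10, the partner of ANXA2, was at 22.4 to 26.5 CPM over the 6 libraries, with a log2 difference of -0.05 ± 0.07 from sO-L1 and 0.03 ± 0.07 from ASO-Ctr. S100A11, which binds ANXA1, was at 37.3 to 46.5 CPM, and its difference from ASO-Ctr, log2 0.15 ± 0.06, had an edgeR adjusted p of 0.0519. S100A6, a partner of ANXA11, was low, at 1.97 to 2.65 CPM. SRI, PEF1 and PDCD6, calcium sensors of the penta-EF-hand family, were at 84.5 to 104, 41.6 to 51.9 and 64.3 to 73.6 CPM. PEF1 and PDCD6 were not called in any comparison.

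The plasminogen activators, which work with ANXA2 at the cell surface, were higher in ASO-L1. Of 8 genes in the list of annexin receptors, phospholipase and plasminogen factors 4 were tested, and 2 of 4 were higher in ASO-L1 in both comparisons, beside 10.3% of all genes called higher against sO-L1 and 9.88% against ASO-Ctr. The medians of the 4 were 0.09 and 0.12 on the log2 scale, against 0.00 over all genes. PLAU, the urokinase activator, had 22.6 and 23.0 CPM in ASO-Ctr, 20.9 and 21.7 CPM in sO-L1, and 35.1 and 32.4 CPM in ASO-L1. Its log2 differences were 0.66 ± 0.07 and 0.58 ± 0.07 from sO-L1 and ASO-Ctr, with edgeR adjusted p of 4.5e-11 and 3.5e-09, and of 0.00947 and 0.0161 without the replicate number. PLAT, the tissue activator that ANXA2 binds, rose by log2 0.35 ± 0.08 and 0.26 ± 0.09, and was not called without the replicate number (edgeR adjusted p 0.129 and 0.262). The 2 calls of this list became 1 when sO-L1 replicate 2 was left out against sO-L1, and, against ASO-Ctr, with DESeq2 or when replicate 2 of either group was left out. The receptor gene PLAUR, at 7.20 to 9.93 CPM, and PLA2G4A, the phospholipase that ANXA1 is known to restrain, were not called. FPR1, FPR2 and FPR3, the formyl peptide receptors through which ANXA1 acts, had 5 counts or fewer in every library.

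Among membrane repair genes, CAV1 and PTRF, which build caveolae, the scaffold AHNAK and the ferlin MYOF were higher in ASO-L1. Of 24 symbols 23 were in the table and tested, and CAVIN1 was present under its older symbol PTRF. In ASO-L1 against sO-L1, 5 of 23 rose and 3 of 23 fell, with a median of 0.03, beside 10.3% of all genes called higher and 12.7% lower. The share that fell is near that over all genes. Against ASO-Ctr 6 of 23 rose and 1 of 23 fell, with a median of 0.09, beside 9.88% and 11.6% of all genes, and the median over all genes was 0.00 in both. Without the replicate number 3 of 23 and 1 of 23 were called, beside 1.84% and 1.95% of all genes.

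CAV1, the caveolin of the plasma membrane, had 4.23 and 4.21 CPM in ASO-Ctr, 4.01 and 3.57 CPM in sO-L1, and 9.61 and 6.32 CPM in ASO-L1. Its log2 differences were 1.04 ± 0.12 from sO-L1 and 0.85 ± 0.13 from ASO-Ctr. AHNAK, a giant scaffold that binds ANXA2 with S100A10, had 13.8 and 12.5 CPM in ASO-Ctr, 9.78 and 13.3 CPM in sO-L1, and 23.6 and 20.6 CPM in ASO-L1, with log2 differences of 0.91 ± 0.10 and 0.79 ± 0.10. MYOF, a ferlin, rose by log2 0.96 ± 0.16 and 0.68 ± 0.16, and PTRF by 0.33 ± 0.06 and 0.35 ± 0.06. By edgeR without the replicate number the adjusted p against sO-L1 was 0.0360 for CAV1, 0.0185 for AHNAK, 0.0290 for MYOF and 0.0697 for PTRF, and against ASO-Ctr only AHNAK stayed under 0.05, at 0.0349. DYSF, the ferlin best known for muscle membrane repair, fell instead, with 10.2 and 13.7 CPM in ASO-L1 against 14.3 to 15.9 CPM in the 4 others and edgeR adjusted p of 0.0325 (sO-L1) and 0.00321 (ASO-Ctr), which became 0.371 and 0.205 without the replicate number. CHMP2A (log2 -0.32 ± 0.05) and CHMP4B (-0.17 ± 0.05) also fell against sO-L1. Their edgeR adjusted p was 1.6e-05 and 0.00708, and 0.0883 and 0.274 without the replicate number. Against ASO-Ctr neither was called (edgeR adjusted p 0.0779 and 0.675).

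Among flippases and scramblases, which set how much phosphatidylserine faces outward, ATP11A, ANO6, ATP8A1 and ATP8A2 were lower in ASO-L1 in both comparisons. All 11 genes of this list were tested. Against sO-L1, 5 of 11 fell and 1 of 11 rose, with a median of -0.25, beside 12.7% of all genes called lower and 10.3% higher. Against ASO-Ctr 4 of 11 fell and 0 rose, with a median of -0.28, beside 11.6% and 9.88% of all genes. Over all genes the medians were 0.00. ATP11A, a flippase, had 76.3 and 94.3 CPM in ASO-Ctr, 73.7 and 97.2 CPM in sO-L1, and 52.9 and 71.5 CPM in ASO-L1, with log2 differences of -0.45 ± 0.05 from sO-L1 and -0.43 ± 0.05 from ASO-Ctr. ANO6, the calcium-activated scramblase, had 89.6 and 96.8 CPM in ASO-Ctr, 83.3 and 91.1 CPM in sO-L1, and 65.7 and 73.3 CPM in ASO-L1. Its log2 differences were -0.32 ± 0.05 and -0.40 ± 0.05.

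Of the other flippase genes, ATP8A1 had log2 differences of -0.25 ± 0.06 from sO-L1 and -0.28 ± 0.06 from ASO-Ctr, both called. XKR8, a scramblase active in dying cells, was the gene that rose against sO-L1, by log2 0.24 ± 0.07. ATP8A2 had log2 differences of -0.28 ± 0.09 from sO-L1 (edgeR adjusted p 0.0221) and -0.64 ± 0.09 from ASO-Ctr, both called. It was also the 1 gene of 11 called in sO-L1 against ASO-Ctr, at -0.37 ± 0.09 (edgeR adjusted p 0.0237). In that comparison 0 were called with DESeq2, with limma-voom, or when ASO-Ctr replicate 1 or either sO-L1 library was left out. Without the replicate number the list's called genes went from 6 to 0 against sO-L1 and from 4 to 1 against ASO-Ctr, the 1 being ANO6 (edgeR adjusted p 0.0393). Against sO-L1 there were 3 called with DESeq2, 3 when either sO-L1 library was left out, and 2 when replicate 1 of ASO-L1 was.

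**Figure D5:**
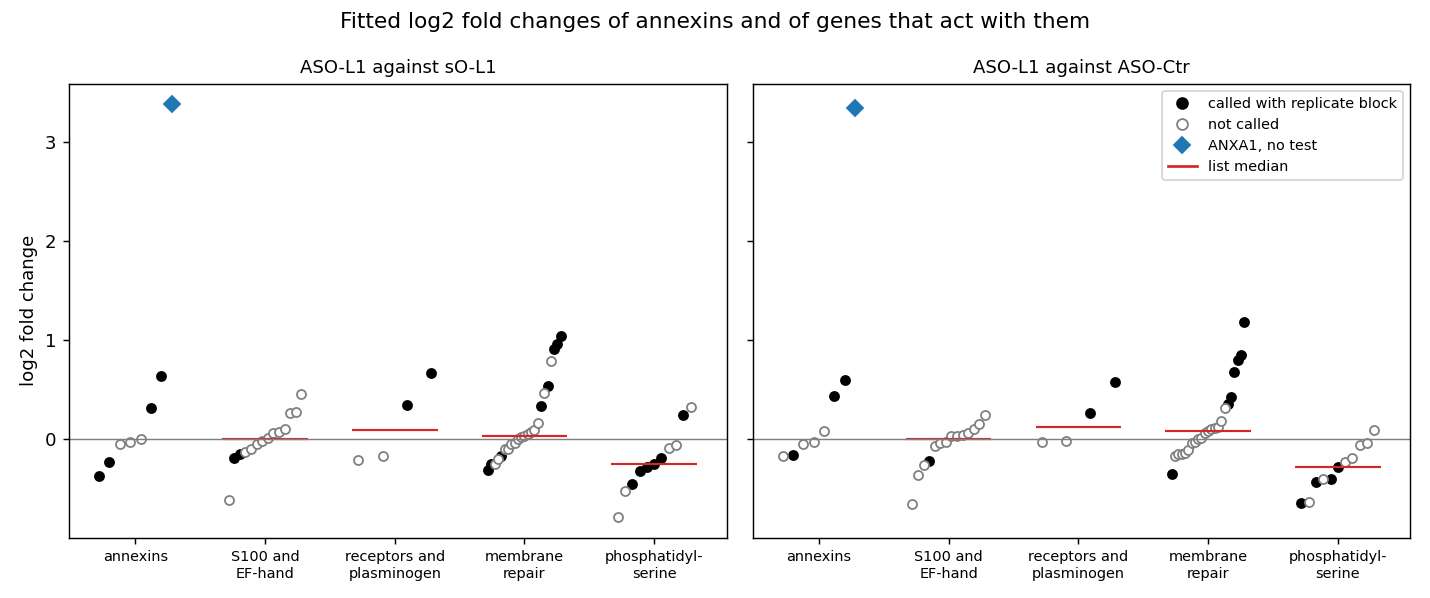
Log2 fold changes (y axis) of the annexins and of the tested genes of the 4 lists of genes that act with them, in ASO-L1 against sO-L1 (left) and against ASO-Ctr (right), filled where called with the replicate block, with ANXA1 (diamond) given without a test and list medians as red lines. PLAU is the highest point of the plasminogen list, at 0.66 and 0.58, and the phosphatidylserine list has its median below 0 in both.

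Among the annexins, ANXA3 (r = 0.93) and ANXA2 (r = 0.92) followed ANXA1 across the 6 libraries, ANXA6 ran opposite (r = -0.95), and ANXA7 (0.63), ANXA5 (0.39), ANXA11 (-0.61) and ANXA4 (-0.65) lay between. These are Pearson correlations of log2 CPM over 6 libraries of 3 groups that share their oligo and replicate number, given as a description. Of 12923 other genes with an average log2 CPM of at least 1, the 5 most like ANXA1 were C6orf141 (r = 0.995), VIM (0.995), ERCC3 (0.993), FAS (0.992) and PCDH18 (0.992). VIM, the intermediate filament vimentin, had 224 and 150 CPM in ASO-Ctr, 204 and 147 CPM in sO-L1, and 398 and 290 CPM in ASO-L1. VIM was picked for its correlation with ANXA1 over these same libraries, so a like pattern was given in advance. It had the higher ASO-L1 level and the higher replicate 1 over a smaller range, with log2 differences of 0.98 ± 0.05 and 0.91 ± 0.05. The death receptor FAS differed by log2 0.51 ± 0.10 from sO-L1 and the protocadherin PCDH18 by 0.70 ± 0.05. ERCC3, a helicase of TFIIH, differed by only 0.06 ± 0.05, so a high r here does not mean a large difference.

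The authors' deposited table of ASO-L1 against sO-L1 lists log2 fold changes of 3.33 for ANXA1, 0.33 for ANXA2, 0.66 for ANXA3, -0.35 for ANXA4 and -0.22 for ANXA6. In the authors' deposited table these 4 annexins other than ANXA1 have adjusted p-values of 1.8e-04, 4.4e-07, 0.00403 and 0.00136. ANXA5 (-0.04), ANXA7 (0.01) and ANXA11 (-0.01) have adjusted p-values of 0.558, 0.923 and 0.897 in the authors' deposited table, where 23.2% of 16753 genes are under 0.05. In the authors' deposited log2 table, which was batch-corrected, the ANXA1 values are -0.06 and -1.06 (ASO-Ctr), -0.38 and -0.996 (sO-L1), and 2.54 and 2.95 (ASO-L1), so that in ASO-L1 the order of the replicates is the reverse of that in the counts.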

How the data were processed

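Poly(A) RNA of 6 libraries was sequenced with a directional kit, per the labels' protocols. The submitters' processing notes name Trim Galore 0.4.0, TopHat2 2.0.13, featureCounts, Subread 1.5.0 and the build hg19. The strand setting and annotation of the counting are not given in the sources used here. The deposited values are raw counts per gene symbol, with duplicates removed according to the table's name. The header of that table is shifted by 1 cell, and the column order was checked against the authors' deposited log2 table, which holds log2 normalized, batch-corrected values. A comparison table deposited by the authors holds log2 fold changes, p-values and test scores (t and B, not used here) for ASO-L1 minus sO-L1. How its p-values were adjusted is not given in the sources used here. Its direction was read from the log2 table (correlation 0.996).

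Of 53715 genes, after removal of 92 spike-in entries, 19156 passed filterByExpr (minimum count 10, total 15) and were fitted in 1 model over all 6 libraries with edgeR 4.0.16 (R 4.3.3; TMM, robust quasi-likelihood, group and replicate number). This left 2 residual degrees of freedom per gene (median prior 44.8, biological coefficient of variation 0.0354). CPM is the count scaled by the library total. SE was obtained by dividing the size of the log2 difference by the root of the F statistic. The pipeline was tested on simulated data. Alternatives were DESeq2 1.42.0, limma-voom (limma 3.58.1), other scaling and filters, no replicate block, fewer libraries and a 2-fold rule.

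The labels do not say that a replicate number marks a shared batch. Differences between replicates correlated across genes at 0.258, 0.191 and 0.278 between pairs of groups, and the authors deposited a batch-corrected table. The pairing is not established, so values without the block stand beside the results.

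The members and all gene lists were chosen with earlier results of these data known, and the annexins and lists support nothing by being chosen. Named genes were all 8 annexins, up to 4 called genes with the smallest p from each list and comparison, the textbook partners, and the 5 genes most like ANXA1. COL3A1, COL1A1, DYSF, CHMP2A, CHMP4B, PLAUR and PLA2G4A were named after their values were seen. The same holds for FOXA2, EOMES, SOX1, DCX, NES, TUBB3, PAX6, SOX2, ZIC2, COL1A2, THY1, LUM and DCN, which were singled out from the marker lists. Certain genes are not reported here.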

Additional observations from a re-analysis of the deposited data

How the results depend on the processing

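Of 286 refits of single annexin values with a test, 255 kept their direction and side of the threshold, 13 lost the call and 18 changed sign. Of 26 refits of ANXA1 in the ASO-L1 comparisons, which have no test, 25 kept their direction and moved by less than the spread of the replicates, and 1 moved by more. Where a group kept 1 library, that library was taken to vary as the other groups do. The ANXA1 values of ASO-Ctr and sO-L1 rest on 16 to 43 counts in each library. The cause of the changes below was not tested, apart from the fewer libraries or the stricter rule that define some of them.

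Without the replicate block (no pairing) the genes called fell from 4412 to 352 in ASO-L1 against sO-L1, from 4120 to 374 against ASO-Ctr and from 330 to 0 in sO-L1 against ASO-Ctr, where 569 genes had an unadjusted p under 0.05. The annexins other than ANXA1 called fell from 4 to 0 and from 3 to 0, and DESeq2 called 2355, 2436 and 125 genes. With a 2-fold rule the genes called were 224, 210 and 11 and the annexins 0 in each comparison. Limma-voom called 191 genes and the 4-library fit 516 in sO-L1 against ASO-Ctr. Leaving out 1 library gave 1802 to 4702, 2336 to 3693 and 9 to 496 genes, and 3 to 4, 2 to 3 and 0 annexins. The counts of genes moved by over 1.5 times, against sO-L1, on leaving out replicate 1 (1802) or 2 (2344) of sO-L1, or replicate 1 of ASO-L1 (2041). Against ASO-Ctr this held for ASO-Ctr replicate 1 (2378) and ASO-L1 replicate 1 (2336), and in sO-L1 against ASO-Ctr for ASO-Ctr replicate 1 (87), sO-L1 replicate 1 (9), sO-L1 replicate 2 (178) and ASO-L1 replicate 2 (496). DESeq2 called 2 annexins against ASO-Ctr.

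All changes of sign were in annexins that were not called. With all 6 libraries they were ANXA7 against sO-L1, at 0.0084 with no filter and 0.0037 with the CPM filter, and, in sO-L1 against ASO-Ctr, ANXA1 at 0.12 and ANXA3 at 0.0075 with no replicate block and ANXA1 at 0.0040 with limma-voom. Leaving out each library in turn gave, against sO-L1, -0.12 to 0.018 for ANXA5, -0.046 to 0.040 for ANXA7 and -0.086 to 0.025 for ANXA11. Against ASO-Ctr it gave -0.099 to 0.038 for ANXA5. In sO-L1 against ASO-Ctr it gave -0.60 to 0.65 for ANXA1, -0.20 to 0.19 for ANXA3, -0.019 to 0.060 for ANXA5 and -0.075 to 0.010 for ANXA11.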
